A study of Homo sapiens with 8 samples.

Results

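Aminoacyl-tRNA synthetases join each amino acid to its transfer RNA, the step that fixes the reading of the genetic code. The 35 human genes described here encode 19 cytosolic synthetases or their subunits and 16 mitochondrial ones, and were chosen by name from the annotation of the arrays, with former symbols without the final digit counted. All 35 had a probe set on either of the 2 array types used. The first array type held 41 of their probe sets among 22277, for 29 of the genes, and the second held 26 among 22665, for 16 of the genes. Genes measured on both types numbered 10. The choice went by names, but was made with earlier results of these data known.

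The arrays were hybridised with RNA of 786-O cells, an established human line of clear cell renal carcinoma that lacks functional VHL. Cells received 25 μM pentamidine or the vehicle DMSO for 6 h. Pentamidine, an aromatic diamidine, is a drug for protozoal disease and Pneumocystis pneumonia that sits in the minor groove of DNA at AT-rich stretches. Both groups are the same line in the same medium and differ, per the labels, by the treatment, with 2 pentamidine and 2 DMSO arrays on each array type. The labels call the duplicates biological. Whether the RNA extracts of the first array type were also put on the second is not stated, and the types were tested separately.

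Synthetases of the cytosol feed translation of nuclear messages. Several of them, together with scaffold proteins, sit in 1 large assembly, the multisynthetase complex. The mitochondrial enzymes are nuclear genes too, mostly separate from the cytosolic ones, and charge the transfer RNAs of the organelle's own small set of messages. When charging falls short, uncharged transfer RNA activates the kinase GCN2 (EIF2AK4), eIF2 is phosphorylated, and the transcription factor ATF4 is translated more. ATF4 acts with C/EBP family partners at composite elements, and genes of several cytosolic synthetases are among its known targets.

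The promoters are shown first, because the motif of that pathway marks some of these genes and not others. RefSeq promoter windows (assembly GRCh38.p14, 300 bases from 250 before to 50 after a transcript start) were found for 30 of the 35 genes, 39 windows in all. The letters TGATGNAA, where N is any base, were searched on both strands as the core of the C/EBP and ATF composite element. They stood in 8 of the 39 windows (20.5%), against 1270 of all 35116 windows (3.6%). The 8 genes were AARS1, CARS1, GARS1, IARS1, MARS1, NARS1, TARS1 and YARS2, the last of them mitochondrial. Each match is printed below 5′ to 3′ on the gene's own strand within 30 bases, with the match in capitals. Capitals that begin with TT are the motif read on the opposite strand.
AARS1, chr16:70289675-70289704, minus strand: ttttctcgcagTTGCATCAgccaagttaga
CARS1, chr11:3057407-3057436, minus strand: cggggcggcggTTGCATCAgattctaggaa
GARS1, chr7:30594834-30594863, plus strand: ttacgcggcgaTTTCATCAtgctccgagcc
IARS1, chr9:92293692-92293721, minus strand: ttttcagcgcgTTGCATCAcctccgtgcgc
MARS1, chr12:57488053-57488082, plus strand: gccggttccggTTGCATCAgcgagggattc
NARS1, chr18:57621804-57621833, minus strand: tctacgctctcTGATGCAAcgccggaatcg
TARS1, chr5:33440956-33440985, plus strand: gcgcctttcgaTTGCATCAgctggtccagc
YARS2, chr12:32756076-32756105, minus strand: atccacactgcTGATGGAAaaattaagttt
In AARS1, CARS1, IARS1, MARS1, NARS1 and TARS1 the variable base was C as the motif is written. The match began 2 bases before the start in CARS1, 4 before it in MARS1, 13 before it in IARS1 and 33 before it in GARS1. It lay farther upstream, at 187 and 197 bases, in AARS1 and YARS2, and downstream of the start in TARS1 and NARS1. A match describes letters and is not a measured binding site. The run AATT, an AT-only stretch of the kind to which pentamidine binds in vitro, stood in 14 of the 39 synthetase windows (35.9%) and in 16068 of all windows (45.8%). The synthetase windows were the more GC-rich, with a median of 62.0% G and C against 58.7% over all windows, which bears on both searches.

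No synthetase transcript passed the test on the first array type after 6 h of pentamidine, and the measured differences were small. Of the 29 genes, 28 had a probe set above the filter on dim signals, the exception being RARS2. All 28 lay within 1.5-fold of DMSO, as did 92.1% of all 9136 genes tested. Log2 fold changes, pentamidine over DMSO, ran from -0.33 to 0.44. The median over the 28 was -0.04, against 0.0 over all genes. The 95% intervals of limma stayed inside 2-fold for 28 of 28 synthetase genes, against 74.2% of all genes tested, and inside 1.5-fold for 20, against 44.0%. Most of these genes are well expressed, 23 of the 28 lying above the median level. The fit lets the variance follow the level, which by itself gives brighter genes narrower intervals. RNA is measured here in bulk, so fewer cells with a transcript and less of it in each cell cannot be told apart. All arrays of this type have the same trimmed mean, so levels are relative and a change common to all transcripts would not show.

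Each probe set was tested with limma, with a variance that follows the level and with Benjamini-Hochberg adjustment over all 15550 probe sets kept. Of the 39 synthetase probe sets kept, 0 had an adjusted p under 0.05, where the share over all probe sets was 0.0%. Only HARS1 had an unadjusted p under 0.05, 1 of 39, where 5.17% of all probe sets did. Both pentamidine arrays lay above both DMSO arrays in 6 of the 39 (15.4%) and below both in 10 (25.6%). Over all probe sets those shares were 19.5% above and 15.6% below. Of the 28 genes, taken by their brightest probe set, 10 lay above DMSO and 18 below, while 50.8% of all genes lay above. The 10 became 14 without pentamidine replicate 1 and 9 without DMSO replicate 1.

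**Figure D1:**
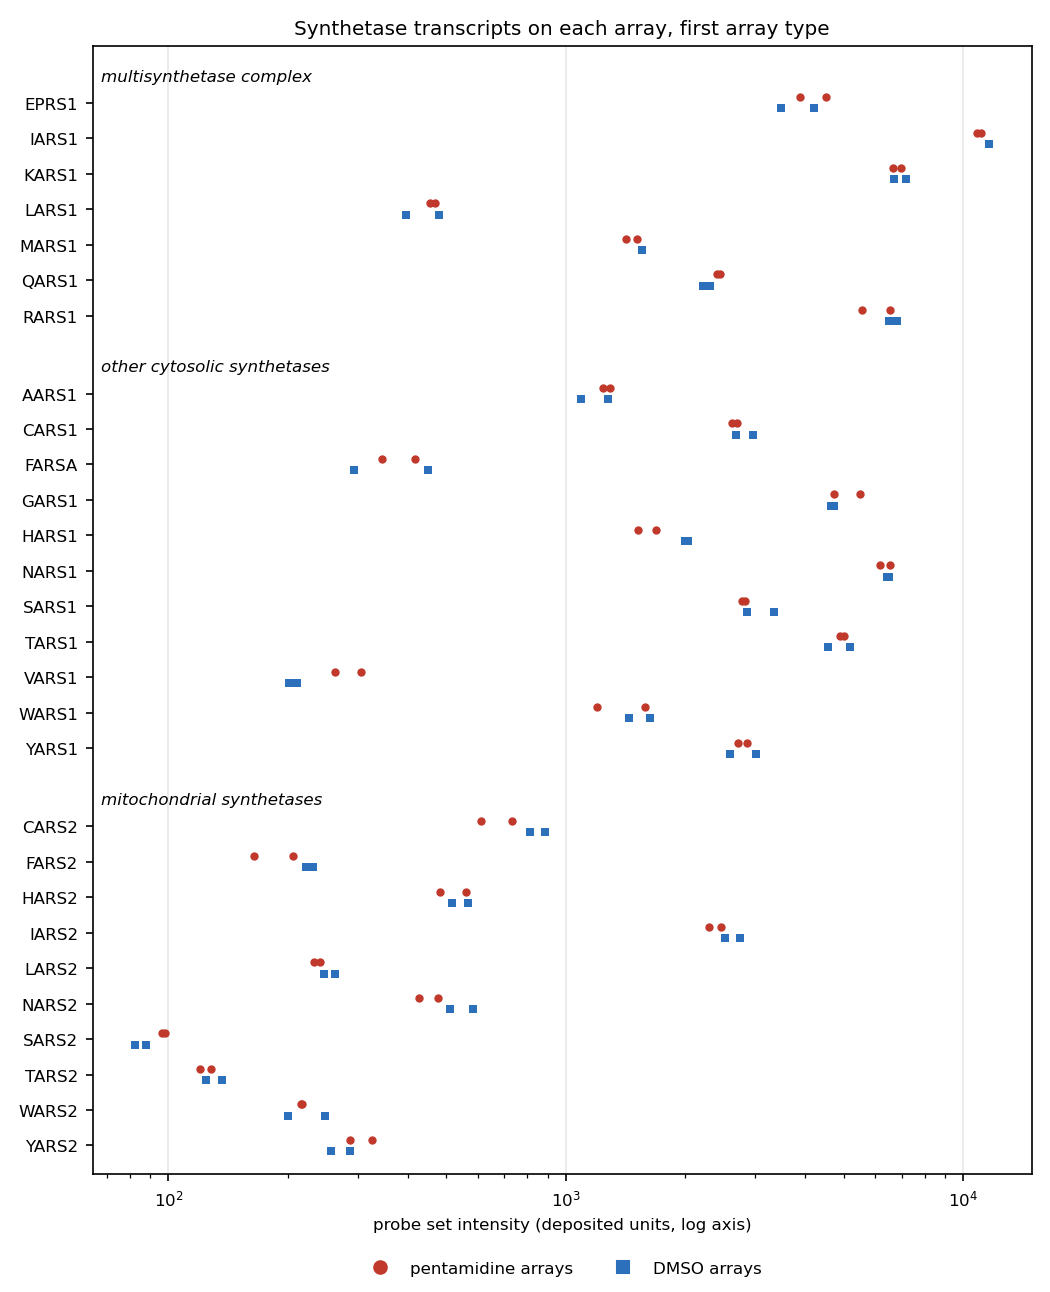
Deposited probe set intensity (log axis) of 28 synthetase genes on the 2 pentamidine arrays (red circles) and the 2 DMSO arrays (blue squares) of the first array type, each gene by its brightest kept probe set. Circles and squares of a gene lie close together, with HARS1 and VARS1 the cytosolic genes whose groups stand visibly apart; levels of different genes are not comparable.

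By their brightest probe sets, the 7 members of the multisynthetase complex had the narrowest range of the roles, from -0.14 to 0.13. Their median was -0.03, and 3 lay above and 4 below DMSO. Their other probe sets, given further on, ran from -0.21 for KARS1 to 0.68 for a dim one of MARS1. This role was also the smallest and the brightest. Its median level percentile was 94.0, against 91.0 for the other cytosolic genes and 52.5 for the mitochondrial ones. EPRS1, which charges both glutamic acid and proline, had 4524 and 3890 intensity units in pentamidine, against 3482 and 4202 in DMSO, a log2 fold change of 0.13. QARS1, the glutaminyl enzyme, had 2446 and 2398 in pentamidine, against 2307 and 2209 in DMSO, or 0.10. LARS1, the leucyl enzyme that also senses leucine for mTORC1, had 469 and 455 in pentamidine, against 480 and 396 in DMSO, or 0.08. Of these, QARS1 alone had both pentamidine arrays above both DMSO arrays.

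KARS1, the lysyl enzyme that serves cytosol and mitochondria from 1 gene, had 6660 and 6976 units in pentamidine, against 7199 and 6689 in DMSO, a log2 fold change of -0.03. MARS1, the methionyl enzyme, had 1420 and 1513 in pentamidine, against 1559 and 1551 in DMSO, or -0.08. IARS1, the isoleucyl enzyme, had 10832 and 11059 in pentamidine, against 11637 and 11624 in DMSO, or -0.09. RARS1, the arginyl enzyme, had 5551 and 6530 in pentamidine, against 6809 and 6490 in DMSO, or -0.14. Both pentamidine arrays were the lower ones for MARS1 and IARS1, while the groups overlapped for KARS1 and RARS1.

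The other cytosolic enzymes divided into 5 genes above and 6 below DMSO, with a median of -0.01 over the 11 on this array type. HARS1, the histidyl enzyme, gave the largest moderated t of all the synthetase probe sets. Its intensity was 1519 and 1685 units in pentamidine, against 1994 and 2035 in DMSO, so the groups did not overlap. The log2 fold change was -0.33 (95% interval -0.61 to -0.05, n = 2 per group), with a limma unadjusted p of 0.0249 and an adjusted p of 0.888. Without the variance trend the interval was -0.75 to 0.09. Leaving out 1 array at a time gave -0.40 to -0.26.

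VARS1, the valyl enzyme, lay at the other end. The brighter of its probe sets, 201797_s_at, had 306 and 263 units in pentamidine, against 201 and 210 in DMSO, again without overlap. Its log2 fold change was 0.44 (95% interval -0.01 to 0.88, limma adjusted p 0.888). The dimmer one, 201796_s_at, had 140 and 132 in pentamidine, against 19.3 and 141 in DMSO, and gave 1.03 (95% interval -0.05 to 2.11, limma adjusted p 0.888). That value rested on the low reading of DMSO replicate 1. It was -0.05 without DMSO replicate 1, and 2.11 with a limma adjusted p of 0.000421 without DMSO replicate 2.

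FARSA encodes the catalytic subunit of the cytosolic phenylalanyl enzyme. Its probe set 202159_at had 274 and 238 units in pentamidine, against 208 and 175 in DMSO, a log2 fold change of 0.39 (95% interval -0.08 to 0.86, limma adjusted p 0.888). The brighter FARSA probe set, 216602_s_at, had 345 and 417 in pentamidine, against 293 and 450 in DMSO, or 0.06, and its groups overlapped.

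The remaining cytosolic genes lay nearer to DMSO than HARS1 and VARS1. GARS1, the glycyl enzyme of both compartments, had 5514 and 4735 units in pentamidine, against 4738 and 4647 in DMSO, a log2 fold change of 0.12. AARS1, the alanyl enzyme, had 1242 and 1290 in pentamidine, against 1092 and 1280 in DMSO, or 0.10. TARS1, the threonyl enzyme, had 5027 and 4895 in pentamidine, against 5201 and 4567 in DMSO, or 0.03. The groups overlapped in all 3. YARS1, the tyrosyl enzyme, whose cleaved fragments act as cytokines, had 2714 and 2858 in pentamidine, against 2597 and 3012 in DMSO, or -0.01. NARS1, the asparaginyl enzyme, had 6167 and 6539 in pentamidine, against 6490 and 6421 in DMSO, or -0.02. CARS1, the cysteinyl enzyme, had 2627 and 2698 in pentamidine, against 2960 and 2680 in DMSO, or -0.08. For these too the arrays of the groups were interleaved. SARS1, the seryl enzyme, had 2781 and 2817 in pentamidine, against 3341 and 2852 in DMSO, or -0.14, with no overlap. WARS1, the tryptophanyl enzyme, an interferon-inducible member of the family, had 1195 and 1586 in pentamidine, against 1446 and 1626 in DMSO, or -0.15, with overlap.

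**Figure D2:**
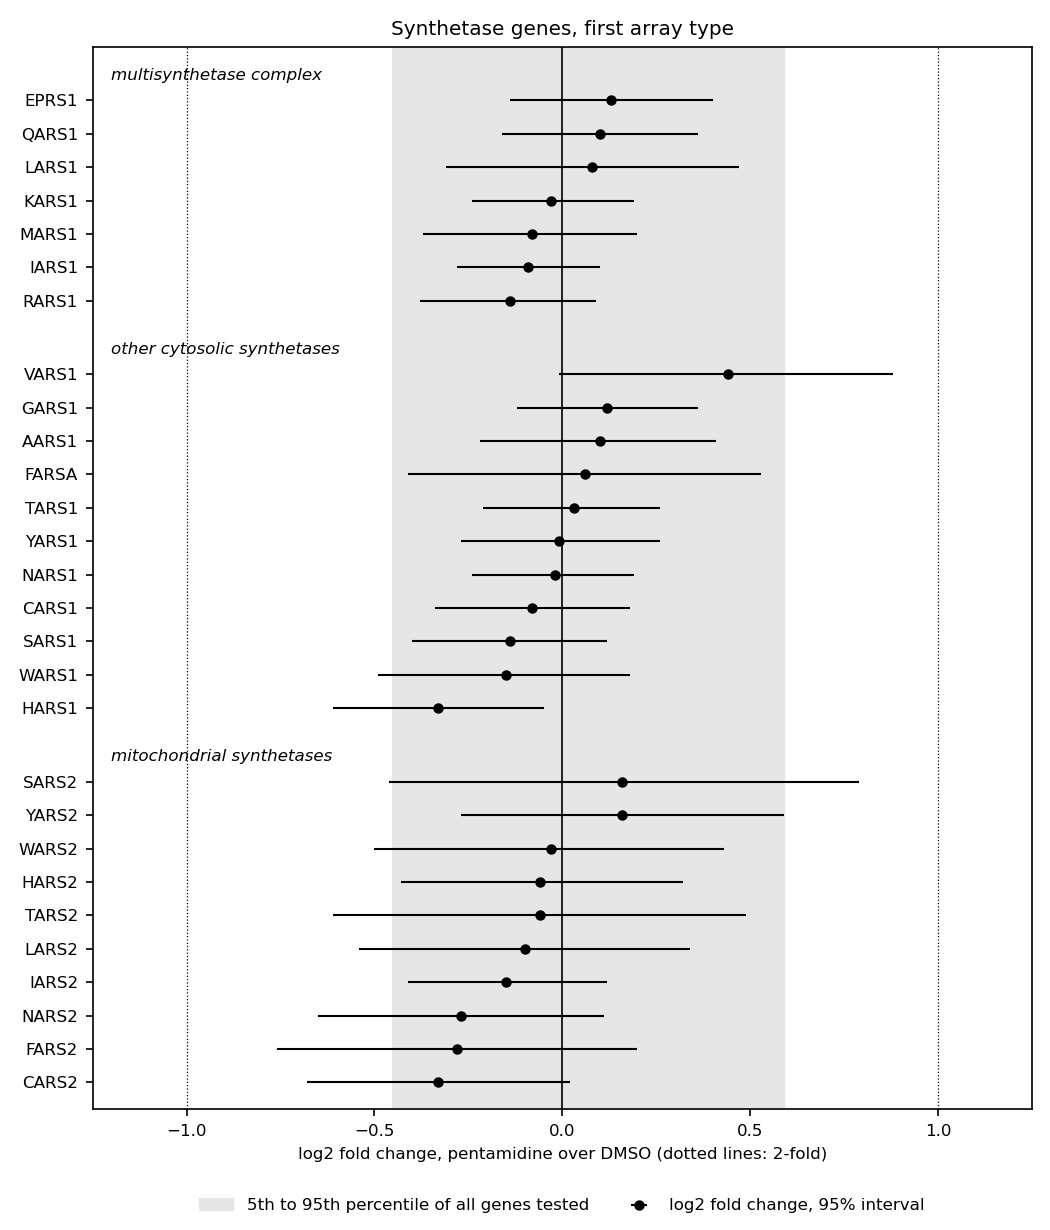
Log2 fold change, pentamidine over DMSO, of 28 synthetase genes on the first array type (x axis) with the 95% interval of limma, sorted within each role; the grey band spans the 5th to 95th percentile of all genes tested, -0.45 to 0.59. All 28 values fall inside the band, from -0.33 for HARS1 and CARS2 to 0.44 for VARS1, and no interval reaches the dotted 2-fold lines.

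Mitochondrial synthetases lay mostly below DMSO on this array type, 8 of the 10 genes kept, with a median of -0.08 and a range of -0.33 to 0.16. Of their 12 kept probe sets, 5 (41.7%) had both pentamidine arrays below both DMSO arrays, and 2 (16.7%) had both above. Among all probe sets 15.6% lay below and 19.5% above in this way. CARS2, the cysteinyl enzyme of the organelle, had 613 and 733 units in pentamidine, against 814 and 886 in DMSO. Its log2 fold change was -0.33 (95% interval -0.68 to 0.02, limma adjusted p 0.888). NARS2, the asparaginyl one, had 426 and 477 in pentamidine, against 585 and 512 in DMSO, or -0.27 (95% interval -0.65 to 0.11, limma adjusted p 0.888). The groups did not overlap for either gene. CARS2 was at -0.21 without pentamidine replicate 1 and at -0.46 without pentamidine replicate 2. NARS2 ranged from -0.36 to -0.18 when 1 array was left out, the -0.18 without DMSO replicate 1.

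FARS2, the phenylalanyl enzyme, had 164 and 206 units in pentamidine, against 231 and 222 in DMSO, a log2 fold change of -0.28. IARS2, the isoleucyl enzyme, had 2457 and 2299 in pentamidine, against 2747 and 2519 in DMSO, or -0.15. LARS2, the leucyl enzyme, had 240 and 233 in pentamidine, against 262 and 246 in DMSO, or -0.10. These were the other genes with both pentamidine arrays the lower ones. HARS2 had 561 and 483 in pentamidine, against 567 and 518 in DMSO, or -0.06. TARS2 had 128 and 120 in pentamidine, against 124 and 136 in DMSO, or -0.06. WARS2 had 217 and 216 in pentamidine, against 200 and 247 in DMSO, or -0.03. In these enzymes for histidine, threonine and tryptophan the groups overlapped.

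The mitochondrial genes above DMSO were SARS2 and YARS2, for serine and tyrosine. SARS2 had 96.2 and 98.1 units in pentamidine, against 82.5 and 87.6 in DMSO, a log2 fold change of 0.16. YARS2 had 325 and 286 in pentamidine, against 286 and 256 in DMSO, also 0.16, with a gap between the groups smaller than the rounding here. The RARS2 probe set, left out as dim, had 16.5 and 1.07 in pentamidine, against 3.01 and 8.83 in DMSO, and has no usable difference on this array type.

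HARS1 and HARS2 are neighbours on chromosome 5, transcribed away from each other. Only 84 bases of GRCh38.p14 separate the gene starts, so the stretch between them is shown. It is printed on the plus strand, with HARS1 to its left and HARS2 to its right, and its single AATT in capitals.
HARS1 and HARS2, chr5:140691371-140691454, plus strand: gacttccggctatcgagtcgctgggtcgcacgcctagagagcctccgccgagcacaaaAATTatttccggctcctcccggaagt
G and C made up 59.5% of these bases. The genes' own values on the first array type were -0.33 for HARS1 and -0.06 for HARS2, and the difference between them was not tested.

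Genes whose promoter window held the TGATGNAA letters were evenly placed around DMSO on the first array type. Of the 8 kept, 4 lay above, with a median log2 fold change of 0.0. Of the 17 kept genes with a window but no match, 4 lay above, with a median of -0.1. The 11 kept genes with AATT in a window had a median of -0.06, with 3 above, and the 14 without it -0.09, with 5 above. On the second array type 3 genes with the TGATGNAA letters had a median of 0.19, with 2 above, and 9 without them -0.03, with 4 above.

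Several genes had more than 1 probe set, which gave a second reading from the same arrays. On the first array type 6 of 9 such genes had all their probe sets on 1 side of DMSO, namely CARS1, FARSA, KARS1, LARS2, VARS1 and WARS1. EPRS1, FARS2 and MARS1 did not. KARS1 probe set 200079_s_at had 3452 and 3594 units in pentamidine, against 4078 and 4077 in DMSO, a log2 fold change of -0.21 (95% interval -0.45 to 0.03, limma adjusted p 0.888). This reading had no overlap, unlike the brighter KARS1 probe set. EPRS1 probe set 200841_s_at had 1885 and 1484 in pentamidine, against 1050 and 1728 in DMSO, or 0.31 (95% interval -0.12 to 0.74, limma adjusted p 0.888). As for VARS1, the value turned on DMSO replicate 1: it was -0.05 without that array, and 0.66 with a limma adjusted p of 0.00887 without DMSO replicate 2. The third EPRS1 probe set, 200843_s_at, had 1661 and 1441 in pentamidine, against 1872 and 1536 in DMSO, or -0.13.

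For MARS1, probe set 201475_x_at had 1567 and 1437 units in pentamidine, against 1414 and 1397 in DMSO, a log2 fold change of 0.09 where the brighter one gave -0.08. The dim MARS1 probe set 213672_at had 32.9 and 70.1 in pentamidine, against 35.6 and 15.9 in DMSO, or 0.68. FARS2 probe set 204282_s_at had 83.1 and 74.5 in pentamidine, against 59.8 and 86.7 in DMSO, or 0.10, against -0.28 from the brighter one. For these 3 genes the sign therefore depended on the probe set read. The other second readings were -0.01 for CARS1, -0.06 for WARS1 and -0.18 for LARS2, each with overlapping groups. Probe sets whose names end in _s_at or _x_at may match several transcripts.

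Nothing among the partners of the synthetases passed the test either. AIMP1, a scaffold protein of the multisynthetase complex, had 1844 and 1935 units in pentamidine, against 1976 and 1987 in DMSO, a log2 fold change of -0.07. AARSD1, which clears wrongly charged alanyl-tRNA, had 263 and 196 in pentamidine, against 146 and 168 in DMSO, or 0.49. They were the 2 kept genes of a list of 7 scaffold and editing partners. GATC, GATB and QRSL1 form the amidotransferase that makes mitochondrial glutaminyl-tRNA, and they gave 0.25, -0.13 and 0.07. Of 22 kept genes of tRNA maturation, export and delivery, 10 lay above and 12 below DMSO, with a median of -0.02. In 4 of their 29 kept probe sets the limma unadjusted p was under 0.05, beside 5.17% of all probe sets. POP7, a subunit of RNase P, had 1329 and 1356 in pentamidine, against 1867 and 1623 in DMSO, or -0.37. ADAT1, a tRNA adenosine deaminase, had 274 and 249 in pentamidine, against 161 and 190 in DMSO, or 0.54.

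Genes that sense uncharged tRNA or act on eIF2 lay on both sides, 6 above and 5 below of 11 kept, with a median of 0.01. In 1 of their 17 kept probe sets the limma unadjusted p was under 0.05, beside 5.17% of all probe sets. EIF2S3, the gamma subunit of eIF2, had 4762 and 4583 units in pentamidine, against 2508 and 4355 in DMSO, a log2 fold change of 0.50 with DMSO replicate 1 again the low array. The ATF4 program without the synthetases had 11 genes above and 13 below of 24 kept, with a median of -0.02. In 5 of their 37 kept probe sets the limma unadjusted p was under 0.05, where 5.17% of all probe sets had one. SLC7A5, the large neutral amino acid transporter, had 3069 and 3311 in pentamidine, against 4012 and 4931 in DMSO, or -0.48. CEBPB, an ATF4 partner, had 2391 and 2809 in pentamidine, against 3195 and 3401 in DMSO, or -0.34. NUPR1, a stress-induced ATF4 target, had 449 and 431 in pentamidine, against 886 and 509 in DMSO, or -0.59. Their limma adjusted p was 0.888 in each case. The mitochondrial ribosome, which uses the tRNAs charged by the organelle's enzymes, had 17 of its 44 kept genes above and 27 below DMSO, with a median of -0.05. In 2 of their 52 kept probe sets the limma unadjusted p was under 0.05, again beside 5.17% of all probe sets. MRPS34 had 0.55 and MRPL34 -0.49, each with a limma adjusted p of 0.888.

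The deposited values had a trimmed mean of 500.2 on each array of the first type, so that figure cannot show how alike the arrays were. Their medians ran from 75.6 in DMSO replicate 1 to 88.2 in pentamidine replicate 1. Correlations between pairs over log2 values were 0.972 to 0.982. On the second type the trimmed means were 500.1 and the correlations 0.831 to 0.862. The medians there ran from 134.7 in DMSO replicate 2 to 164.4 in pentamidine replicate 1. No arrays held identical values. Of the 8 renal carcinoma markers on the first type, CDH2, EPAS1, KRT8, KRT18, PAX2, PAX8, VEGFA and VIM, all were kept. Of the leukocyte markers 0 of 4 were kept, and the highest value of their 6 probe sets on any array was 35.1 units. Endothelial markers were kept in 1 of 4, hepatocyte markers in 1 of 3 and erythroid markers in 1 of 2, each near the filter level. The kept hepatocyte marker, ALB, had 2.77 and 2.86 in pentamidine, against 31.8 and 46.0 in DMSO. With both pentamidine values under the filter level of 20.8 units, it was kept through its DMSO arrays, and its part in the results was not tested. The ratio of 3′ to 5′ signal, a measure of RNA quality, overlapped between groups for the ACTB and GAPDH control probe sets of the first type. With 2 arrays a group, an exact test of a single value cannot give a p below 0.333, and this number of arrays limits the precision throughout.

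The second array type, which covers other genes, had wider differences and again no synthetase that passed. Of 25 kept synthetase probe sets, 0 had a limma adjusted p under 0.05, against 2 of all 15804 (0.0127%), and the lowest was 0.902. MARS2 and LARS1 gave 2 of the 25 an unadjusted p under 0.05, where 4.95% of all probe sets had one. Both pentamidine arrays lay above both DMSO arrays in 1 of the 25 (4.0%), where 17.7% of all did, and below both in 5 (20.0%), where 16.5% did. Of 16 genes 8 lay above and 8 below DMSO. Their log2 fold changes had a median of 0.02 and ran from -0.93 to 0.84. Genes within 1.5-fold of DMSO numbered 13 of the 16, against 69.9% of all 6999 genes tested. Intervals stayed inside 2-fold for 8 of the 16, against 40.1% of all genes.

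The 3′ to 5′ ratios, the measure of RNA quality, did not overlap between the groups on this type, with 2 arrays in each. For GAPDH the 3′ to 5′ ratio was 0.716 and 0.677 on the pentamidine arrays, against 0.843 and 0.806 on the DMSO arrays. That of ACTB was 1.226 and 1.208 in pentamidine, against 1.471 and 1.273 in DMSO. Both ratios were the lower in both pentamidine arrays, and their part in the values that follow was not tested. EPAS1, the 1 renal carcinoma marker on this type, was not kept, with at most 32.6 units on any array. The 1 marker of another tissue kept was APOA1 of hepatocytes, with 31.1 and 51.1 units in pentamidine, against 192 and 234 in DMSO. Its pentamidine values lay under the filter level of 76.8 units, so it was kept through its DMSO arrays. APOA1 was not kept on the first type, and its part was not tested either.

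Of the mitochondrial synthetases on the second type, 3 lay above and 5 below DMSO, with a median of -0.03 over 8 genes. MARS2, the methionyl enzyme of mitochondria, had 656 and 287 units in pentamidine, against 908 and 785 in DMSO. Its log2 fold change was -0.93 (95% interval -1.70 to -0.16), with a limma unadjusted p of 0.0185 and an adjusted p of 0.902. Without the variance trend the interval was -2.43 to 0.57, and leaving out 1 array at a time gave -1.50 without pentamidine replicate 1 and -0.36 without pentamidine replicate 2. PARS2, the prolyl enzyme, had 489 and 383 in pentamidine, against 787 and 651 in DMSO, or -0.71 (95% interval -1.47 to 0.06, limma adjusted p 0.902). These groups did not overlap, and both genes were measured on the second array type alone.

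EARS2, the glutamyl enzyme, was read with opposite signs. Probe set 225993_at had 725 and 492 units in pentamidine, against 790 and 823 in DMSO, a log2 fold change of -0.42 (95% interval -1.10 to 0.26, limma adjusted p 0.918). It was -0.69 without pentamidine replicate 1 and -0.15 without pentamidine replicate 2. The brighter 227374_at had 1564 and 1218 in pentamidine, against 1274 and 1170 in DMSO, or 0.18. RARS2, the arginyl enzyme, was bright here at 225264_at, with 5371 and 5890 in pentamidine, against 6209 and 5344 in DMSO, or -0.03. Its probe set 232902_s_at had 1303 and 2059 in pentamidine, against 1543 and 2173 in DMSO, or -0.16. Its probe set 232901_at had 220 and 126 in pentamidine, against 21.3 and 211 in DMSO, or 0.99 with DMSO replicate 1 low. The RARS2 groups overlapped in all 3 readings.

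VARS2, the valyl enzyme, had 473 and 853 units in pentamidine, against 891 and 727 in DMSO, a log2 fold change of -0.33. WARS2 had 977 and 916 in pentamidine, against 796 and 915 in DMSO, or 0.15, the 1 synthetase probe set with both pentamidine arrays on top. AARS2, the alanyl enzyme, had 340 and 344 at 231845_at in pentamidine, against 413 and 291 in DMSO, or -0.02. The other AARS2 probe set, 230024_at, had 200 and 18.2 in pentamidine, against 106 and 311 in DMSO, and CARS2 had 52.8 and 341 in pentamidine, against 54.9 and 171 in DMSO. Arrays of 1 group differed several-fold in these dim probe sets, with log2 fold changes of -1.22 for AARS2 and 0.44 for CARS2.

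Cytosolic enzymes on the second type included 2 of the complex. KARS1 had 13634 and 15205 units in pentamidine, against 14544 and 15066 in DMSO, a log2 fold change of -0.04. LARS1 had 3 probe sets that did not go the same way. The brightest, 222427_s_at, had 5844 and 6750 in pentamidine, against 6219 and 5274 in DMSO, or 0.13. Probe set 222428_s_at had 5130 and 5265 in pentamidine, against 5704 and 7494 in DMSO, or -0.33 (95% interval -0.64 to -0.02), with a limma unadjusted p of 0.0393 and an adjusted p of 0.902. This reading depended on the DMSO arrays, and was -0.13 without DMSO replicate 2, the high array, and -0.53 without DMSO replicate 1. Probe set 223888_s_at had 704 and 1174 in pentamidine, against 590 and 1358 in DMSO, or 0.02.

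Of the 6 other cytosolic genes, 4 lay above and 2 below DMSO, with a median of 0.12. FARSB, the partner subunit of FARSA, had 5610 and 6314 units at its brightest probe set in pentamidine, against 5266 and 6143 in DMSO, a log2 fold change of 0.07. Its dimmer probe sets gave 0.57 and 0.16, so all 3 lay above, with overlapping groups. NARS1 had 21034 and 21424 in pentamidine, against 22430 and 22391 in DMSO, or -0.08 without overlap. CARS1 had 821 and 778 at 240983_s_at in pentamidine, against 605 and 811 in DMSO, or 0.19, and -0.48 at the dimmer 240982_at. The probe sets of SARS1, TARS1 and YARS1 on this type were dim and their arrays scattered. SARS1 had 36.2 and 187 in pentamidine, against 118 and 110 in DMSO, or -0.33. TARS1 had 174 and 231 in pentamidine, against 203 and 50.7 in DMSO, or 0.84. YARS1 had 32.4 and 268 in pentamidine, against 217 and 30.1 in DMSO, or 0.18.

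**Figure D3:**
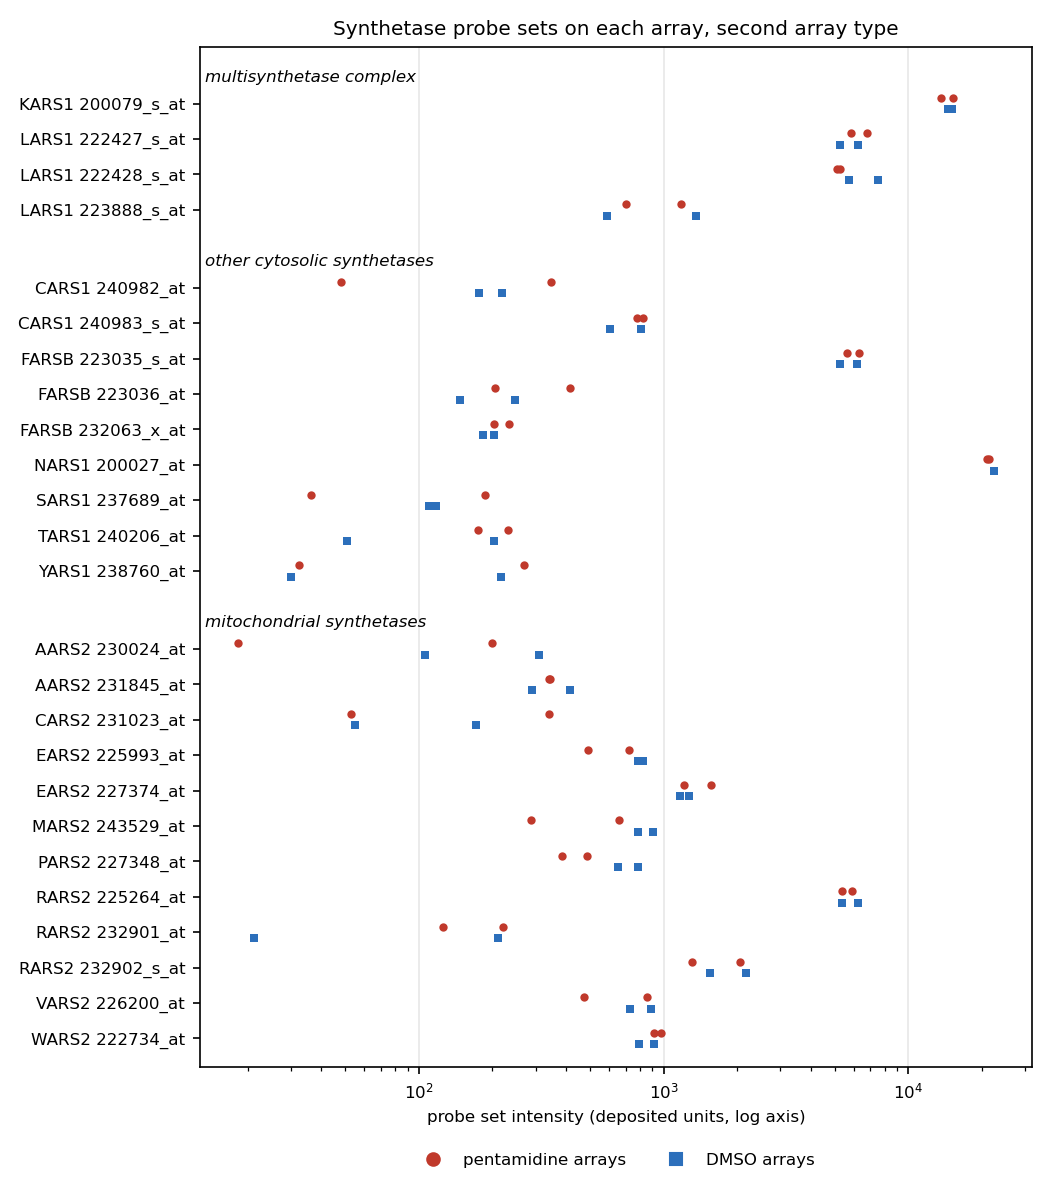
Deposited probe set intensity (log axis) of the 25 kept synthetase probe sets on the 2 pentamidine arrays (red circles) and the 2 DMSO arrays (blue squares) of the second array type. MARS2 and PARS2 show both pentamidine arrays to the left of both DMSO arrays, bright probe sets such as NARS1 and KARS1 have their arrays close together, and dim ones such as YARS1 and SARS1 are spread within a group; levels of different probe sets are not comparable.

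In the main fit brighter synthetase genes had the narrower intervals on both types. That fit lets the variance follow the level, so the pattern is in part built in and is not a finding about these genes. Above the median level the median 95% interval of a synthetase gene spanned 0.54 log2 units over 23 genes of the first type and 1.08 over 12 of the second. At or below it the span was 0.96 over 5 genes and 4.39 over 4.

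Among 9 synthetase genes kept on both types, KARS1, LARS1, NARS1, SARS1 and TARS1 had the same sign on both and CARS1, YARS1, CARS2 and WARS2 did not. That is 5 of 9, beside 1432 of the 2779 genes kept on both types (51.5%). CARS2 was at -0.33 on the first type, while a dim probe set of the second gave 0.44. Dim probe sets of the second type also gave the values of SARS1 and TARS1, counted with the same sign, and of YARS1. The types share a single probe set for KARS1 and for NARS1. KARS1 200079_s_at gave -0.21 with the first type and -0.04 with the second, and NARS1 200027_at gave -0.02 and -0.08.

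**Figure D4:**
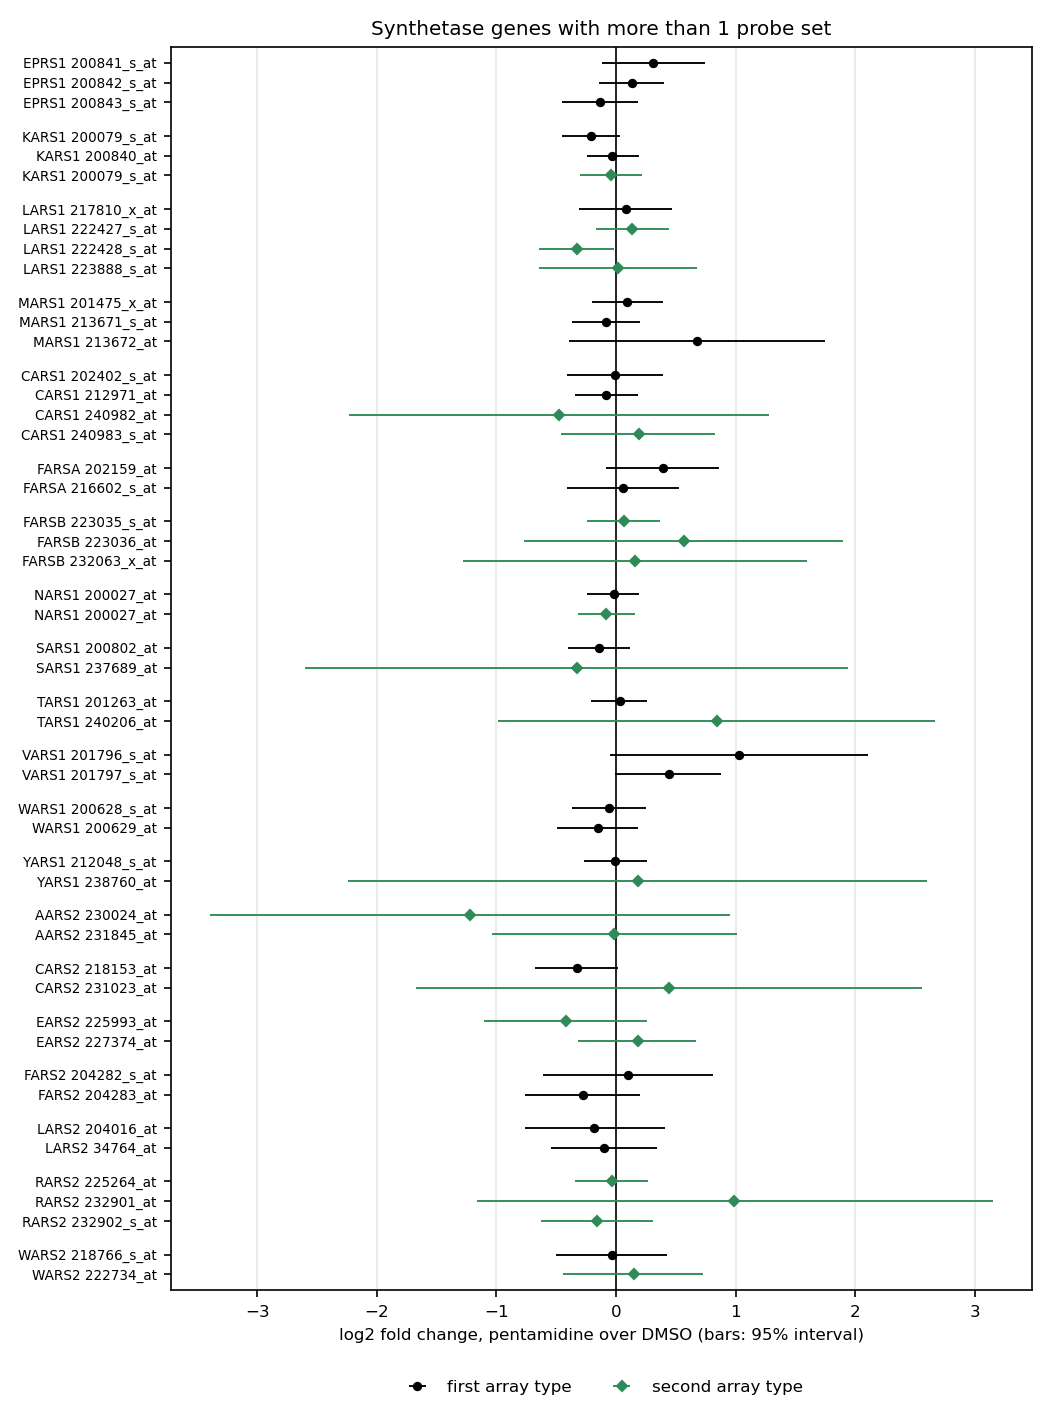
Log2 fold change, pentamidine over DMSO (x axis), with the 95% interval of limma for every kept probe set of the synthetase genes that have more than 1, on the first (black circles) and second (green diamonds) array type. Probe sets of 1 gene often fall on both sides of 0, as for EPRS1, MARS1, LARS1 and EARS2, and the widest intervals belong to dim probe sets of the second type such as AARS2 230024_at at -1.22.

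The neighbouring pathways on the second type had 0 genes past the test as well. GCN2 itself, EIF2AK4, had 1853 and 1641 units in pentamidine, against 1724 and 1897 in DMSO, a log2 fold change of -0.05. EIF2S3, at 0.50 on the first type, gave 0.01 here, with 16389 and 16099 in pentamidine, against 15550 and 16621 in DMSO. Of 13 genes of tRNA maturation, export and delivery, 10 lay below DMSO, and the median was -0.12. The mitochondrial ribosome had 10 genes above and 9 below, with a median of 0.01, and the amidotransferase and formylation partners GATC, QRSL1 and MTFMT gave 0.13, 0.18 and 0.04. The scaffold and editing partners had 2 above and 2 below, with a median of 0.09, and the genes of uncharged tRNA sensing and eIF2 control had 1 above and 3 below, with a median of -0.04. The ATF4 program without the synthetases had 2 of its 5 kept genes above and 3 below, with a median of -0.02. In 2 of their 7 kept probe sets the limma unadjusted p was under 0.05, where 4.95% of all probe sets had one. They went opposite ways and are named here after their values were seen. ALDH1L2, a mitochondrial folate enzyme, had 66.7 and 27.7 in pentamidine, against 281 and 288 in DMSO, a log2 fold change of -2.32. Both its pentamidine values lay under the filter level of 76.8 units, so this probe set was kept through its DMSO arrays. JDP2, a bZIP transcription factor, had 695 and 591 in pentamidine, against 248 and 463 in DMSO, or 0.89. Each had a limma adjusted p of 0.902. AARSD1, counted above among the scaffold and editing partners, had 117 and 163 in pentamidine, against 10.4 and 18.3 in DMSO. Its log2 fold change was 2.36 (95% interval -0.67 to 5.39), near the lower end of the levels kept. Both its DMSO values lay under the filter level, so it was kept through its pentamidine arrays.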

How the data were processed

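Per the labels' protocols, biotinylated cRNA made from 786-O total RNA (6 h of 25 μM pentamidine or DMSO) was run on 2 Affymetrix array types, 2 arrays per group on each. The authors deposited a linear intensity for each probe set. The submitters' processing notes name Affymetrix Expression Console. Its version, the algorithm and any filter are not given in the sources. Symbols were updated by gene ID to RefSeq (GRCh38.p14), which matched 19707 of 19724 probe sets with 1 symbol on the first type and 13542 of 13582 on the second. Probe sets with several symbols were named for no gene. Sequences are from RefSeq, same assembly.

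Affymetrix controls (62 and 88 probe sets) stayed out. Each intensity entered as log2(value + 16), which understates the fold of dim probe sets, and those with a mean under the 30th percentile, 20.8 and 76.8 units, were left out. Pentamidine was compared with DMSO within each type by lmFit and eBayes (trend) of limma 3.58.1 in R 4.3.3, with a threshold of 0.05 on the Benjamini-Hochberg adjusted p. The fit was also run on simulated data drawn from its own variance model, which cannot show how well that model holds for these arrays. A gene was represented by its kept probe set with the highest mean. Intervals and adjusted p were given for the 8 and 4 synthetase probe sets with the largest absolute moderated t. Other genes named on the first type were up to 4 a list by that statistic. Cell type markers, and genes of these lists on the second type, were named outside that rule. Members, lists and tests were chosen with earlier results of these data known.

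Alternatives were quantile normalization, median centring, offsets of 1 and 64, a 50th percentile filter, no filter, no trend, a robust prior, a replicate block, the median over probe sets, and leaving out each array.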

Additional observations from a re-analysis of the deposited data

How the results depend on the processing

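Of the synthetase probe sets, 0 passed the test under quantile normalization, median centring, other offsets, other filters, no variance trend, a robust prior or a replicate block on either type. Leaving out 1 array gave 0 to 2 on the first type, while the second type had 0. The 2 were VARS1 201796_s_at, whose log2 fold change ranged from -0.05 to 2.11, and EPRS1 200841_s_at, from -0.05 to 0.66, each called without DMSO replicate 2. Probe sets called over the whole first type numbered 0 to 482 when 1 array was left out, the 482 without DMSO replicate 2, and 25 with a replicate block. On the second type they numbered 0 to 112 when 1 array was left out, the 112 without DMSO replicate 2, and 8 with a replicate block, 9 with a robust prior, 1 with the 50th percentile filter and 0 without the trend. The cause was not tested. Arrays of the same number did not deviate together (correlations 0.00491 and 0.0137). With 2 arrays a group this cannot show whether the numbers pair the samples.

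The median over the synthetase genes with median centring was -0.07 for the first type and -0.08 for the second. It ranged from -0.07 to -0.01 and from -0.10 to 0.09 when 1 array was left out, and was -0.06 on the second type over the median of each gene's probe sets. Genes above DMSO ranged from 9 to 14 on the first type and from 5 to 11 on the second when 1 array was left out. Intervals inside 2-fold on the second type fell to 5 without the trend. Signs changed for 17 of 39 synthetase probe sets on the first type, and for 15 of 25 on the second, when some 1 array was left out, and for 1 and 2 under the other settings. A lone array left in a group was assumed to vary like the others.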
